A study of Homo sapiens with 5 samples.

Results

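Histone genes lie in clusters, and H3K27ac at their start sites was read here from a table of 20087 ChIP-seq peaks made from HCT116 cells with and without interferon beta (IFN-β). A peak was taken where its centre lay within 1 kb of a GENCODE 44 start site of a protein-coding gene named H1-, H2AC, H2BC, H3C or H4C with a number. This gave 34 of the 20087 peaks, out of 11334 with a protein-coding start site at that distance. They lay at 43 of the 74 histone genes, and 31 genes had none. The choice used positions and gene names, and no measured value.

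The cells descend from HCT116, an established line from a human colorectal carcinoma. All libraries came from a single derivative of it, HCT116 CMV-osTIR1 RAD21-mAC, which carries the plant auxin receptor osTIR1 and a degron-tagged cohesin subunit RAD21. Every culture stood in 0.1% DMSO for 6 h. The IFN-β group (2 libraries, 60 min) then received 1000 unit/ml IFN-β for 1 h, and the control group (2 libraries, 0 min) received nothing further. The labels thus place the groups 1 h of culture apart, so this hour and IFN-β cannot be told apart. Each ChIP used 500000 cells fixed in 1% formaldehyde, and the H3K27ac libraries had 5.5 M to 8.6 M reads each, beside 16 M for the single input library. The table gives a single value per peak and group, the log2 of the mean normalised reads over the 2 libraries. No library can be seen on its own, so no value below has an SD, and no difference between the groups was tested.

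Of 10 genes that mark colorectal epithelium, 5 had a promoter peak, with control signals of 7.10 at EPCAM, 6.52 at KRT8 and KRT18, 5.37 at CDX2 and 4.48 at CDH1. KRT20, CDX1, CDH17, VIL1 and LGR5 had none. Of genes of blood, fibroblasts, endothelium and muscle, COL1A1 (5.24) and ACTA2 (4.64) had a promoter peak, and PTPRC, CD3E and PECAM1 had none. The table as a whole was lower with IFN-β, with a median difference (IFN-β less control, log2) of -0.69 over all peaks, so differences are also given relative to that offset. In a bulk culture, fewer cells with the mark and less of the mark per cell cannot be told apart. Whether the offset of the table came from the cells or from the depth and scaling of the libraries was not tested. No library has a value of its own.

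Core histones H2A, H2B, H3 and H4 form the protein spool of the nucleosome, and linker histones of the H1 class bind where DNA enters and leaves it. Most of their genes are replication-dependent: they are transcribed chiefly in S phase, lack introns, and give mRNAs that end in a stem-loop in place of a poly(A) tail. The genes gather at histone locus bodies around the coactivator NPAT, and many H2A and H2B genes share a promoter head to head. H3K27ac marks active promoters and enhancers, usually on the nucleosomes beside the start site.

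The promoters of these genes carry short elements that differ by histone class, so the 150 bases before the start site are shown for up to 2 genes of each class. These were taken from the genes that stand nearest to the centre of a peak, by control signal among those with a RefSeq sequence (build GRCh38.p14). They are joined by H4C14 and H4C15, whose peaks stood at the lowest value of the table in each group. Capitals mark matches on either strand to TATAAA, which is the core promoter element known as the TATA box, to CCAAT, which binds the factor NF-Y, and to the octamer ATTTGCAT, which binds POU2F1. They also mark AAACACA, the AC box of H1 genes, and GGTCCG, the core of the site of HINFP, a regulator of H4 genes. The E2F sites TTTCGCG and TTTGGCG and the GC box GGGCGG were marked too. All are written 5′ to 3′ on the strand of the gene. The linker histone promoters shown are those of H1-2 and H1-4.
H1-2 (chr6:26056471-26056620, - strand): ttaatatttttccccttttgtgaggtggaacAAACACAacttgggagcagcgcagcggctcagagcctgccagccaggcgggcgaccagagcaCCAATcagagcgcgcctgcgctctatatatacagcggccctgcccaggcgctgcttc
H1-4 (chr6:26156179-26156328, + strand): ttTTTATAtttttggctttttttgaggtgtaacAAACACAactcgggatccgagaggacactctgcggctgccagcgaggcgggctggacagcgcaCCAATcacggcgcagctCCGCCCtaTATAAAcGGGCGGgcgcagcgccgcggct

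Both hold the AC box at -119 and -117 from the start site, and a CCAAT box at -57 and -54. The H2A and H2B promoters come next, and those of H2AC11 and H2BC11 belong to a head-to-head pair whose windows overlap.
H2AC4 (chr6:26033619-26033768, - strand): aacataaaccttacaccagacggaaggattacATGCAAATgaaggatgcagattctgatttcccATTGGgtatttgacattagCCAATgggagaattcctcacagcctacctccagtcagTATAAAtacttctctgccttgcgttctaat
H2AC11 (chr6:27132893-27133042, + strand): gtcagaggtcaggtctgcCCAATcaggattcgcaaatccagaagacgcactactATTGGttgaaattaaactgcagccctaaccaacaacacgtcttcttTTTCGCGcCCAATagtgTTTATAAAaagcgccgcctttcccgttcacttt
H2BC17 (chr6:27893275-27893424, + strand): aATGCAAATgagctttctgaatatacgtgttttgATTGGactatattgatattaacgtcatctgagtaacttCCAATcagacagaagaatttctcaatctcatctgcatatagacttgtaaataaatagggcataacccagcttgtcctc
H2BC11 (chr6:27132796-27132945, - strand): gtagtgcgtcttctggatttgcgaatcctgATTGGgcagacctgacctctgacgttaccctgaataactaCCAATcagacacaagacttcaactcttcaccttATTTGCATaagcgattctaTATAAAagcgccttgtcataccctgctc

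In H2BC11 the octamer stands at -47 in front of the TATA box at -28. Read from H2AC11 on the opposite strand, the same 8 bases lie at -208, outside the stretch shown. The TATA box of H2AC11 was matched on both strands at overlapping positions (-33 and -31). The H3 promoters hold a pair of CCAAT boxes and a TATA box.
H3C1 (chr6:26020301-26020450, + strand): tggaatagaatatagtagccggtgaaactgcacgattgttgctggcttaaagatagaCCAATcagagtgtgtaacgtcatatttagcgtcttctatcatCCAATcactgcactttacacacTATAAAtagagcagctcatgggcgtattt
H3C10 (chr6:27809901-27810050, + strand): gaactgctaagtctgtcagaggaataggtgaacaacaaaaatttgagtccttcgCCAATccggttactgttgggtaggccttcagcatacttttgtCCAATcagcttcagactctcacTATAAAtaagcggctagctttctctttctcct

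The H4 promoters lack a CCAAT box in these windows and hold GGTCCG at -46.
H4C2 (chr6:26027284-26027433, - strand): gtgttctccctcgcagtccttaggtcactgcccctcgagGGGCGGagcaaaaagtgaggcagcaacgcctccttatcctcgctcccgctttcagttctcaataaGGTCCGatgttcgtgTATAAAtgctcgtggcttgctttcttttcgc
H4C5 (chr6:26204460-26204609, + strand): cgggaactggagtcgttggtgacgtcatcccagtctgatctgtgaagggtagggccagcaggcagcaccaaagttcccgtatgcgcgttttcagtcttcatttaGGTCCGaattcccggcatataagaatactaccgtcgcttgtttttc
H4C14 (chr1:149832507-149832656, + strand): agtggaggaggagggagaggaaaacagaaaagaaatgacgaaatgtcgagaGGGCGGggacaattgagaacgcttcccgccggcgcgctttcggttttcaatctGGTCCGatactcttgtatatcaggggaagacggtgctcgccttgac
H4C15 (chr1:149861160-149861309, - strand): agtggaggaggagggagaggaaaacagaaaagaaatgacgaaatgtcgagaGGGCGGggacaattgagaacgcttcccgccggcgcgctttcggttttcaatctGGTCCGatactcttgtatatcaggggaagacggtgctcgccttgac

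H4C14 and H4C15 are identical over these 150 bases, and over the longer stretch from 250 bases before to 50 after the start (100% identity).

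A promoter sequence of that length was found for 67 of the 74 genes and was searched on both strands beside all 35116 promoters of the same reference. The RefSeq start lay within 50 bp of the GENCODE start for 64 of the 67, and the largest gap was 11702 bp. H2AC12, H2BC12L, H3C11, H3C12, H4C1 and H4C3 were among those with no entry. TATAAA was present in 43 of the 67 (64.2%, against 11.5% of all promoters) and CCAAT in 56 (83.6% against 34.6%). CCAAT was found in 16 of 16 H2A, 18 of 18 H2B, 11 of 11 H3 and 8 of 9 H1 promoters, but in 3 of 13 H4 promoters. The octamer was held by 26 promoters (38.8% against 1.77%), of which 14 were H2B, 11 H2A and 1 H3, with none of class H1 or H4. The H3 match was at H3C4, whose CCAAT and octamer matches had the same positions and strands as those of H2AC7. The same promoter may thus be counted for both genes, also among the 11 H3 promoters with CCAAT. On the forward strand only, the octamer was found in 13 of 18 H2B and 1 of 16 H2A promoters. Head-to-head windows overlap, so a site can count for both genes. GGTCCG was present in 16 (23.9% against 11.3%), 12 of them H4, where every match began between -47 and -44. The AC box was found in 10 (14.9% against 5.64%), 7 of them among the 9 H1 promoters. TTTCGCG was found in 13 (19.4% against 1.32%), TTTGGCG in 1 (1.49% against 1.92%) and GGGCGG in 18 (26.9% against 45.0%). All these are matches of letters and not measured binding.

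**Figure D1:**
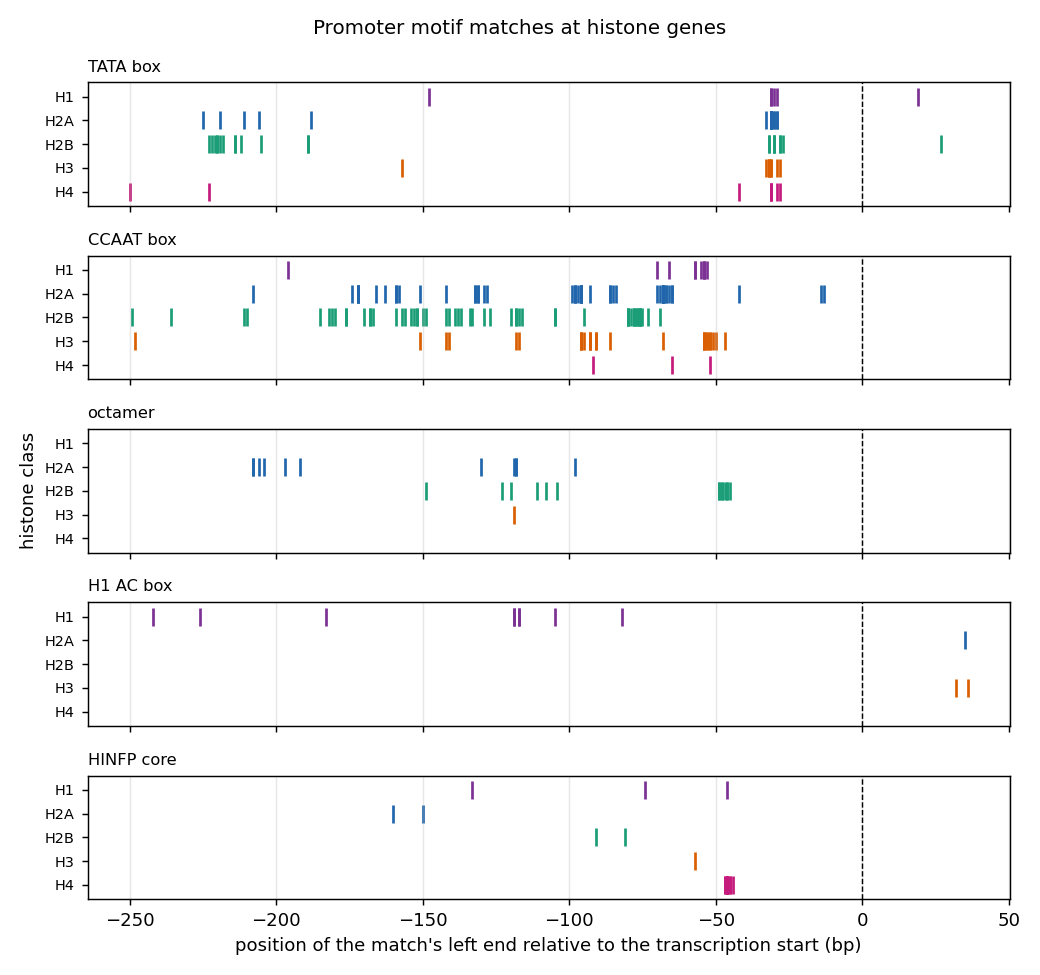
Positions of 5 promoter elements in the histone promoters, with a tick at the left end of each match on either strand (x axis, bp from the transcription start; y axis, histone class). GGTCCG matches of H4 genes stack between -47 and -44, and AC box matches before the start lie in H1 genes. Octamer matches lie in H2A and H2B genes with 1 in H3 (H3C4). A site shared by a head-to-head pair gives a tick in both classes.

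Promoters of genes with and without a peak both held these elements. Among the 37 promoters of genes with a peak and the 30 without, TATAAA was found in 25 and 18, CCAAT in 28 and 28, the octamer in 16 and 10, GGTCCG in 11 and 5, and the AC box in 3 and 7. H3C4 counts among the 30. Its CCAAT and octamer matches had the same positions and strands as those of H2AC7, which had a peak.

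The histone peaks were among the strong peaks of the table in both groups, and the 31 of them above the column minima were each lower with IFN-β. The other 3 stood at the lowest value of both columns and have no measured direction. The median signal of the 34 was 6.47 in the control group and 5.79 with IFN-β. Over all peaks it was 5.04 and 4.39, and over the promoter peaks 5.52 and 4.77. In the control group 29 of the 34 were above the median of the table and 15 stood in its top 10% (above 6.54). Their differences ran from -1.05 to -0.42 with a median of -0.73, beside -0.69 over all peaks and -0.75 over the promoter peaks. Relative to the offset of the table, 22 peaks were lower, 11 higher and 1 equal, and 3 of the 11 were those at the minima. The 22 are 64.7% of the histone peaks, beside 49.7% of all peaks and 58.3% of the promoter peaks. For control signals of 6 to 7 the share was 73.7% of 19 histone peaks and 71.8% of 3050 other promoter peaks.

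A difference below -1 was seen at 3 of the 34 (8.82%), while 17.4% of all peaks and 18.1% of the promoter peaks passed that size. No histone peak had a difference above 0, as 5.93% of all peaks and 2.81% of the promoter peaks did. Among other promoter peaks that share was 10.3% for control signals of 3 to 4, 0.164% for 6 to 7 and 0% for 7 to 8. At like control signal the histone peaks were close to other promoter peaks. For control signals of 6 to 7 the median difference was -0.76 at 19 histone peaks and -0.81 at 3050 others (SD over peaks 0.156 and 0.209), and for 7 to 8 it was -0.80 at 6 and -0.86 at 489. For 5 to 6 it was -0.66 at 4 histone peaks and -0.74 at 4039 others, and for 3 to 4 it was -0.64 at 2 and -0.62 at 1075. Summed over the 34 peaks the normalised reads had a log2 ratio of -0.78, beside -0.70 for all peaks, and the histone peaks held 0.329% of the control signal and 0.31% of the IFN-β signal in 0.169% of the peaks.

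**Figure D2:**
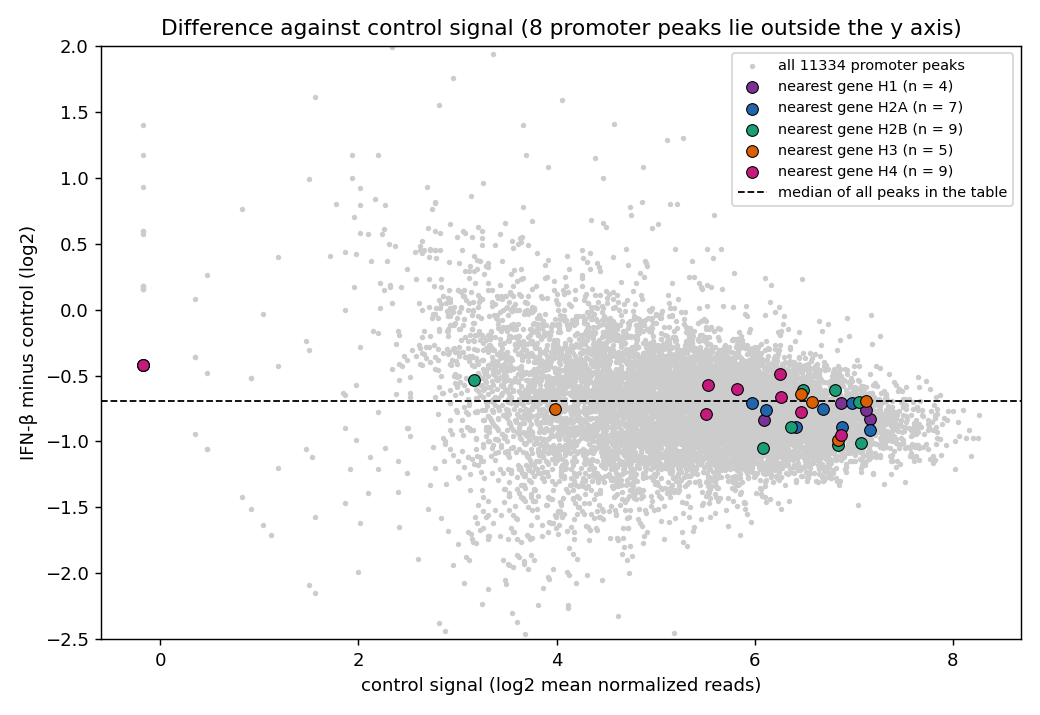
Difference between the groups (y axis, IFN-β minus control, log2) against control signal (x axis, log2 mean normalised reads) for 11334 promoter peaks in grey and the 34 histone peaks coloured by the class of the nearest gene, with a dashed line at the median of all peaks (-0.69). The histone peaks lie on both sides of that line between -1.05 and -0.42, inside the cloud of promoter peaks, and the point at the far left stands for 3 peaks at the column minima.

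All 34 peaks were 1000 bp wide. Their centres lay between 33 and 914 bp from the nearest histone start (median 364.5 bp, against 141 bp at other promoter peaks), 21 of them (61.8%) downstream of it, as were 59.4% of the others. GC content was 51.2% at the median, beside 64.2% over promoter peaks.

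The linker histone class had a peak at 4 of 10 genes, and the 3 described here had differences from -0.84 to -0.76. H1-2, a main somatic H1, had a peak at chr6:26055477-26056477 with a signal of 7.16 in the control group and 6.33 with IFN-β (143 and 80.4 normalised reads), a difference of -0.83. At H1-4, another somatic H1, the peak at chr6:26155905-26156905 went from 7.12 to 6.36 (-0.76). Both were among the 5 highest control signals of the 34. H1-10 lies apart from the clusters, on chromosome 3, and makes a replication-independent linker histone from polyadenylated mRNA. Its peak (chr3:129315887-129316887) read 6.09 and 5.25, a difference of -0.84. Relative to the offset of the table these 3 peaks stood at -0.14 (H1-2), -0.07 (H1-4) and -0.15 (H1-10). The linker genes with no peak were H1-1, H1-3 and H1-5, which are somatic, and H1-6, H1-7 and H1-8, which belong to the germ line.

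H2A and H2B genes, whose proteins pair as dimers in the nucleosome core, had a peak at 12 of 17 and 12 of 19 genes. The peaks within 1 kb of both an H2A and an H2B start numbered 8, and they included all 3 histone peaks with a difference below -1. That is 37.5% of the 8, beside 17.4% of all peaks and 18.1% of the promoter peaks. The median difference of the 8 was -0.89, beside -0.71 at the other 26. Their median control signal was also higher, 6.75 against 6.37, and the part of signal in their differences was not tested. At H2BC12 and H2AC12 (chr6:27146434-27147434) the signal was 6.08 in the control group and 5.03 with IFN-β, a difference of -1.05, the lowest of the 34. The H2BC4 and H2AC6 peak (chr6:26123156-26124156) followed with 6.84 and 5.81 (-1.03), and the peak at H2BC17, H2AC17 and H3C12 (chr6:27893389-27894389) with 7.07 and 6.06 (-1.01). Each of these 3 was near 0.5 as a ratio of IFN-β to control reads (0.483, 0.49 and 0.497). Each also held repeated sequence, with 36.3%, 12.3% and 18.9% of its 31-mers found more than once in the reference, and the part of these repeats in the differences was not tested.

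Other H2A and H2B pairs were closer to the offset of the table. On chromosome 6 the H2AC7 and H2BC7 peak (chr6:26198433-26199433) read 6.69 and 5.94 (-0.75), and it also lay within 1 kb of a start of the protein-coding gene ENSG00000282988. The H2AC11 and H2BC11 peak (chr6:27133098-27134098) read 6.98 and 6.27 (-0.71), and a neighbouring peak at H2BC11 alone (chr6:27131378-27132378) read 7.05 and 6.35 (-0.70). These flank the divergent promoter printed above, and their values were near each other in both groups. At H2BC15 and H2AC15 (chr6:27838414-27839414) the signal was 6.81 and 6.20, a difference of -0.61, which is above the offset. On chromosome 1 the H2BC21 and H2AC20 peak (chr1:149885592-149886592) read 6.37 and 5.48, and the H2AC25 and H2BC26 peak (chr1:228456896-228457896) 6.42 and 5.53. Both had a difference of -0.89, as had the peak at H2AC21 and H2AC20 (chr1:149887337-149888337, 6.88 and 5.99), which also lay within 1 kb of a start of BOLA1.

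Of the peaks at a single H2A or H2B gene, H2AC4 (chr6:26032656-26033656) shared the highest control signal of the 34 with H1-2, at 7.16 against 6.25 with IFN-β (-0.91). H2BC6 (chr6:26171933-26172933) read 6.49 and 5.88 (-0.61). H2BC3 stood apart, with signals of 3.17 and 2.64 at chr6:26042354-26043354, the lowest histone peak above the minima, and its difference of -0.53 was among the 5 highest. On chromosome 1, H2AC18 (chr1:149843164-149844164) read 6.11 and 5.35 (-0.76), and H2AC19 (chr1:149849740-149850740) read 5.97 and 5.26 (-0.71). The windows of these neighbours hold parts of each other: 29.5% of the 75-mers of the H2AC18 peak occur at H2AC19, and 39.5% of those of the H2AC19 peak occur at H2AC18. The 75-mers have the read length given in the labels.

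H3 genes had a peak at 5 of 13. The peak between H3C1 and H4C1 (chr6:26020363-26021363) had a signal of 7.12 in the control group and 6.43 with IFN-β, and its difference of -0.69 equalled the offset of the table. H3C6 (chr6:26223887-26224887) read 6.47 and 5.83 (-0.64), and H3C10 (chr6:27809516-27810516) 6.58 and 5.88 (-0.70). The H3C12 and H2AC17 peak (chr6:27891763-27892763) read 6.84 and 5.85, and with a difference of -0.99 it was among the 5 lowest, next to the H2BC17 peak. H3C13 and H2BC18 (chr1:149812794-149813794) had low signals of 3.98 and 3.23 (-0.75), and 62.2% of the 75-mers there were repeated. Of all 75-mers of this window, 40.3% occur at chr1:121117719-121118625 and 40.1% at chr1:143905080-143905981, both far from the cluster.

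H4 genes, most of which encode the same protein, had a peak at 10 of 15. The 9 peaks nearest to an H4 start had the highest median difference of any class, -0.60, with medians of -0.80 at H1 (4 peaks), -0.76 at H2A (7), -0.70 at H2B (9) and -0.70 at H3 (5). A difference above the offset of the table was seen at 6 of the 9, and 2 of these 6 were at the column minima. Above the offset stood 9869 of all 20087 peaks and 4562 of the 11334 promoter peaks. The 9 also had the lowest median control signal of the classes, 5.82, and the part of signal in their differences was not tested. Without peaks at the minima the H4 median was -0.66 (7 peaks), and that of H2B was -0.80 (8 peaks). H4C2 (chr6:26027334-26028334) read 6.87 and 5.92, and at -0.95 it was the exception, among the 5 lowest of the 34. H4C3 (chr6:26102974-26103974) read 6.47 and 5.69 (-0.78). H4C4 (chr6:26188579-26189579) read 6.25 and 5.76, and its -0.49 was the highest difference of any histone peak above the minima. H4C5 (chr6:26203905-26204905, 6.27 and 5.61, -0.66), H4C8 (chr6:26285500-26286500, 5.53 and 4.96, -0.57) and H4C11 (chr6:27823511-27824511, 5.82 and 5.22, -0.60) also stood above the offset. The H4C11 peak shares 37.1% of its 75-mers with H4C12, which had no peak. On chromosome 12, H4C16 (chr12:14770345-14771345) stands alone and read 5.51 and 4.72 (-0.79).

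**Figure D3:**
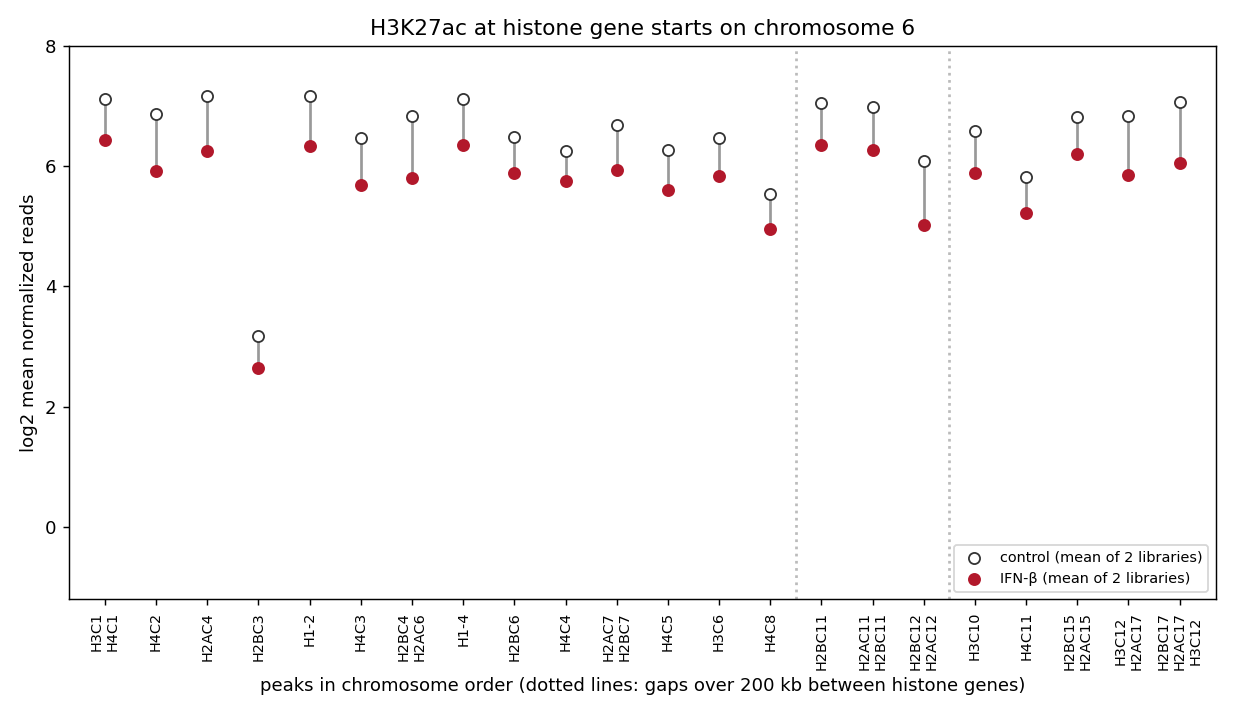
H3K27ac signal (y axis, log2 mean normalised reads) at the 22 histone peaks of chromosome 6 in chromosome order (x axis), with open circles for the control group, filled circles for the IFN-β group (each a mean of 2 libraries) and a line joining them. The filled circle is below the open circle at every peak, with differences from -1.05 to -0.49, and H2BC3 is the low peak, at 3.17 and 2.64.

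The genes fall into clusters when split at gaps over 200 kb. The largest, at chr6:26017787-26285638, holds 32 genes, of which 17 had a peak, with 14 peaks and a median difference of -0.72. The cluster at chr6:27132795-27147106 holds 5 genes, 4 with a peak (3 peaks, -0.71), and that at chr6:27807929-27893425 holds 16 genes, 7 with a peak (5 peaks, -0.70). On chromosome 1 the cluster at chr1:149812373-149887965 holds 11 genes, 9 with a peak (7 peaks, -0.75). None of these medians was over 0.1 from the offset of the table.

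Both column minima were found at 3 histone peaks, H4C14 (chr1:149832051-149833051), H4C15 (chr1:149860543-149861543) and H2BC12L (chr21:43565049-43566049). There the control signal was -0.17 (0.889 normalised reads) and the IFN-β signal -0.59 (0.664 reads), the lowest values of each column, so their shared difference of -0.42 is that between the minima and no measure of IFN-β at these genes. These 3 are 8.82% of the histone peaks, and 2.29% of all peaks stand at both minima. Every 31-mer and 75-mer of their windows occurs more than once in the reference. The H4C14 and H4C15 windows hold 100% of each other's 75-mers. The H2BC12L window recurs whole at chr21:5972523-5973522, and parts of it recur near H4C9 (27.2% of its 75-mers, chr6:27140623-27141031) and at H2BC12 (chr6:27146409-27146715). In the table as a whole, 458 of the 460 peaks at both minima (99.6%) had over 10% repeated 75-mers, as had 634 of the other 19627 (3.23%). How reads with several equal matches were aligned and counted is not given in the sources used here, and the part of repeated sequence in these values was not tested.

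**Figure D4:**
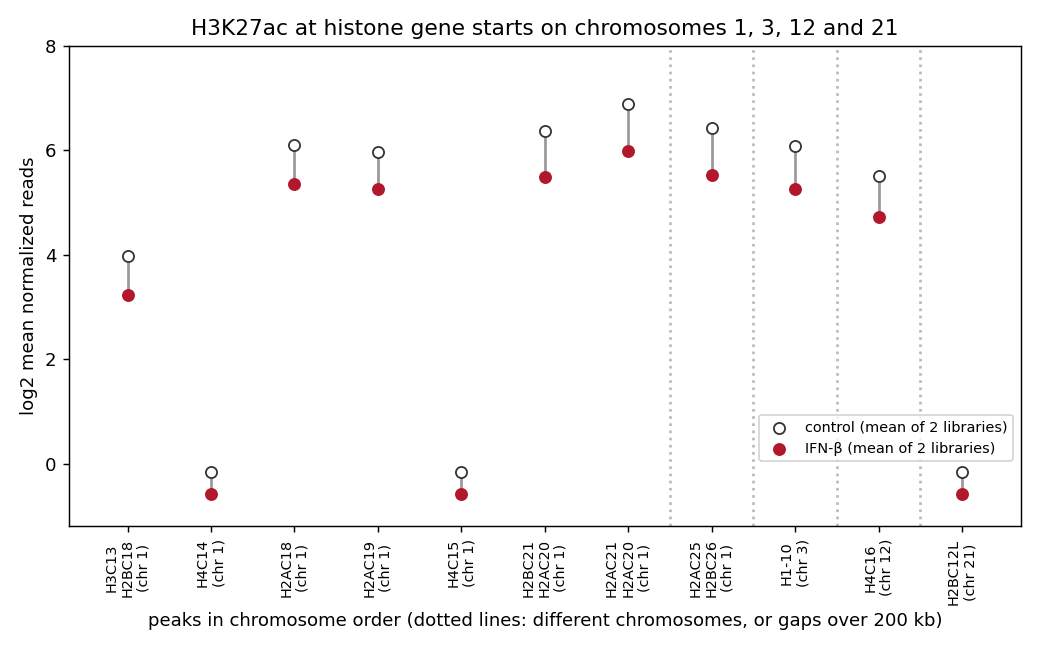
H3K27ac signal (y axis, log2 mean normalised reads) at the 11 histone peaks of chromosomes 1, 3, 12 and 21 in chromosome order (x axis), drawn as for chromosome 6. H4C14, H4C15 and H2BC12L stand at the column minima of -0.17 and -0.59, H3C13 is low at 3.98 and 3.23, and the other 7 have control signals between 5.51 and 6.88.

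Repeated sequence was common at the histone peaks beyond these 3. Over 10% of the 31-mers were repeated at 16 of the 34 (47.1%), against 10.5% of promoter peaks, and over 10% of the 75-mers at 9 (26.5%), against 2.77%. At the 18 peaks with up to 10% repeated 31-mers the median difference was -0.76 and none was below -1. At the other 16 it was -0.71, with all 3 of the peaks below -1. Without the peaks at the minima, the 31 others had medians of 6.49 and 5.83 and a median difference of -0.75.

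No peak centre lay within 1 kb of the start of 31 genes. Besides the 6 linker genes they were H2AC1, H2AC8, H2AC13, H2AC14 and H2AC16 of class H2A, H2BC1, H2BC5, H2BC8, H2BC9, H2BC10, H2BC13 and H2BC14 of class H2B, H3C2, H3C3, H3C4, H3C7, H3C8, H3C11, H3C14 and H3C15 of class H3, and H4C6, H4C7, H4C9, H4C12 and H4C13 of class H4. None of their starts lay under a peak. The closest peak centre was between 1057 bp (H3C2) and 236337 bp (H2AC1) away, with a median of 7699 bp. Peak centres within 2 kb were found for 4 of them, H3C2, H2BC5, H3C4 and H2AC13, and 15 were beyond 10 kb. H2AC1 and H2BC1, a pair transcribed mainly in the testis, were the farthest from any peak.

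Genes without a peak lay between genes with one. Within the largest cluster, H1-3, H4C6, H4C7, H3C7, H2BC9, H3C8 and H2BC10 follow each other between the H3C6 and H4C8 peaks, and each was over 10 kb from a peak centre. In the cluster at chr6:27807929-27893425, H2AC16, H1-5, H3C11 and H4C13 were likewise over 10 kb away. Over 10% of the 75-mers around the start were repeated at 7 of the 31 genes without a peak, and at 13 of the 43 with one. The 13 include H4C14, H4C15 and H2BC12L, whose peaks stood at both column minima. They also include H2AC18 and H2AC19, whose starts lay under no peak. In these 5 genes every 75-mer around the start was repeated. The part of repeated sequence in missing peaks was not tested. Among the 31, H3C14 and H3C15 had every 75-mer repeated. GC content around the start was 49.7% without and 53.1% with a peak (medians).

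**Figure D5:**
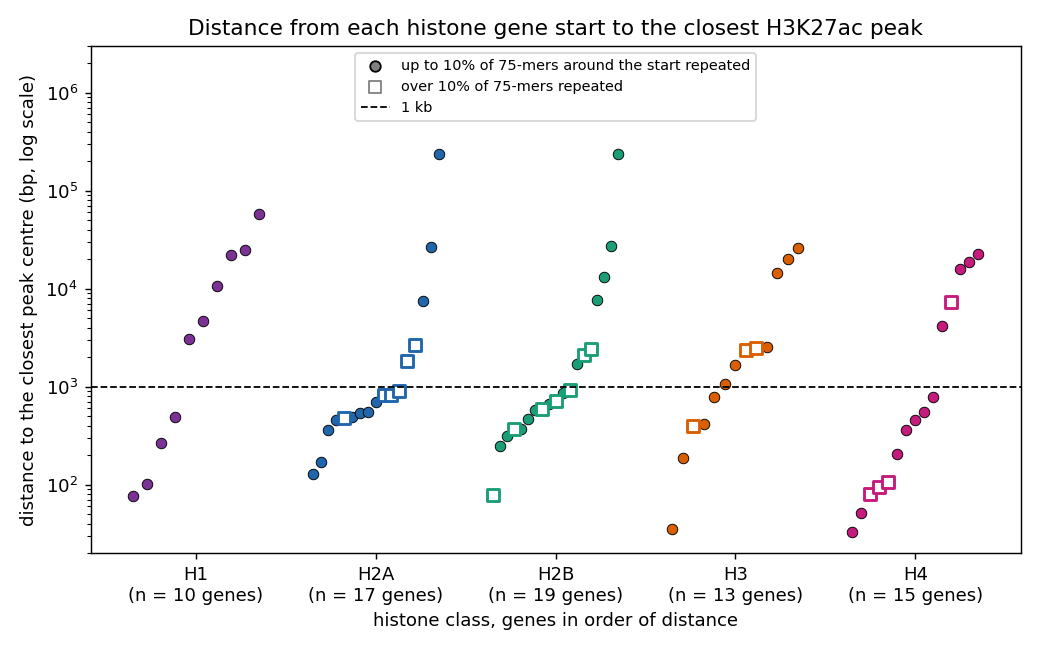
Distance from each of the 74 histone gene starts to the closest peak centre (y axis, bp, log scale) by histone class (x axis), with open squares where over 10% of the 75-mers around the start are repeated and a dashed line at 1 kb. The 43 genes at or under the line have a peak, the 31 above it reach 236337 bp, and open squares lie on both sides.

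Other genes of the histone pathway were read from lists that share no peak with the 34, and their values have no test either. Variant histones, which are made outside S phase as well and replace the core histones, had a promoter peak at 9 of 10 genes. Their 12 peaks had medians of 6.75 and 5.83 and a median difference of -0.98, and 5 of them (41.7%) were below -1, beside 18.1% of promoter peaks. The lowest was H2AJ (4.80 and 3.55, -1.25), followed by a peak of H3-3B (8.02 and 6.81, -1.21), which encodes the H3.3 that is laid down outside replication and had another peak at -0.80 (6.78 and 5.98). CENPA, the H3 variant of the centromere, had the highest difference with -0.45 (5.51 and 5.06), and H2AX, which is phosphorylated at DNA breaks, the next with -0.57 (5.20 and 4.63). Both also had a second peak, at -0.97 and -1.04.

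Factors that transcribe histone genes and process the 3′ end of their mRNA had a promoter peak at 21 of 22 genes. The 22 peaks had a median difference of -0.76 (medians 6.11 and 5.34), with 3 (13.6%) below -1, beside 18.1% of promoter peaks. HINFP (5.12 and 4.06, -1.06) and POU2F1 (7.26 and 6.22, -1.04), factors of H4 and H2B promoters, were the lowest. ZNF473, a zinc finger protein of the U7 complex, read 5.56 and 5.43 (-0.13), and GON4L 4.90 and 4.58 (-0.32) at its higher peak and 3.92 and 3.37 (-0.55) at another. NPAT itself read 6.18 and 5.59 (-0.59), and SLBP, which binds the stem-loop, 7.17 and 6.19 (-0.98).

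Histone chaperones had a promoter peak at 22 of 22 genes, with a median difference of -0.75 over 26 peaks (medians 5.95 and 5.23). Of these, 3 (11.5%) were below -1 and 1 (3.85%) above 0, beside 18.1% and 2.81% of promoter peaks. CABIN1, of the HIRA complex, held both ends, with a peak at 3.01 and 1.23 (-1.78) and another at 3.27 and 3.54 (0.27). Both were weak, and its strongest peak read 4.98 and 4.57 (-0.41). TONSL (7.47 and 6.30, -1.17) and IPO4 (4.87 and 4.71, -0.16) came next to these ends.

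DNA replication genes, active in the same phase of the cell cycle, had a promoter peak at 42 of 42, with a median difference of -0.76 over 45 peaks (medians 5.96 and 5.20) and 8 (17.8%) below -1, beside 18.1% of promoter peaks. MCM6 (5.64 and 4.50) and ORC6 (6.15 and 5.01), of the helicase and the origin complex, had -1.14 each, and PCNA (4.56 and 4.27, -0.29) and RFC1 (4.69 and 4.30, -0.39), of the sliding clamp and its loader, were the highest. That PCNA peak was the weakest of 3 at the gene, and the others read 6.28 and 5.44 (-0.84) and 4.61 and 3.92 (-0.69). Ribosomal protein genes, a set with no part in this pathway, had a peak at 80 of 86 genes. The median difference was -0.80 over 86 peaks (medians 6.32 and 5.50), with 17 (19.8%) below -1, beside 18.1% of promoter peaks. RPL36A (4.89 and 3.37, -1.52) and RPS10 (5.53 and 4.15, -1.38) were the lowest, and single peaks of RPL6 (5.83 and 5.53, -0.30) and RPL10 (-0.17 and 0.01) the highest. The latter was at the minimum of the control column, and it alone of this list was above 0 (1.16%, beside 2.81% of promoter peaks). Each of these genes had a stronger peak, which read 6.76 and 5.97 (-0.79) at RPL6 and 6.65 and 5.69 (-0.96) at RPL10. Without the peaks at the minima the histone peaks had a median of -0.75, equal to that of the chaperones, and variant histones had the lowest of these lists.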

How the data were processed

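H3K27ac ChIP-seq was done in 2 IFN-β and 2 control libraries with 1 input, and the authors deposited a single table of peaks. Its signals are log2 values, which the authors made as the log2 of the mean normalised reads of each group, rounded to 2 decimals. The submitters' processing notes list bcl2fastq 2.17, fastp 0.19.3, Bowtie2, SAMtools, MACS2, DiffBind and DESeq2. Reads were trimmed, aligned to GRCh38 and called against the input, and DiffBind merged the peaks and scaled for library size. The table's fold change, p-value and FDR columns hold the authors' own comparison and were not used, and the input has no column. The labels give reads of 75 bp and the series text 84 bp.

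The difference was computed as the IFN-β less the control value, so it is good to about 0.01. With a pooled value per group no test could be run. Start sites came from GENCODE 44, and 39 of 39 sequence names of the table were matched in the GRCh38 reference. Repeated k-mers were counted within 500 bp of each centre over 194 reference sequences, without alternate haplotypes, and promoters came from RefSeq (GRCh38.p14). Calculations used Python 3.11.15, numpy 2.4.6, pandas 2.3.3 and numba 0.67.0, were tested on simulated data, and were plotted with matplotlib 3.10.9. Members and lists were chosen with earlier results of these data known. Named are the 34 peaks, except for a result that is not reported here, and in more detail the 5 with the highest control signal, the 5 highest and 5 lowest differences, those at the minima, H1 genes and genes outside the clusters, and in each list the highest and lowest 2. NPAT, SLBP and the further peaks of list genes named for another peak fall outside this rule and were chosen after their values were seen. Alternatives changed the distance, the start sites, the peaks included, the scale, the promoter window and the strand searched.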

Additional observations from a re-analysis of the deposited data

How the results depend on the processing

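Of 38 alternatives, 27 left a result within its tolerance (0.1 on the log2 scale, 1.5 times a count, or the Wilson interval of a share) and 11 did not. The median difference of the histone peaks, -0.73, lay between -0.781 and -0.71 under the 10 alternatives on the deposited scale, and centred on the median of the table it was -0.04. The 3 peaks below -1 became 0 on the centred scale, 30 at a limit of -0.5, and 0 without peaks of over 10% repeated 31-mers, an alternative chosen after seeing the data. Above 0 there were 0 peaks as deposited and 11 centred. Genes with a peak numbered 43, and 28 both within 500 bp and where the start had to lie under a peak. On the forward strand only, the share of histone promoters was 20.9% for the octamer, 7.46% for the AC box, 10.4% for TTTCGCG and 0% for TTTGGCG. No paired analysis was possible because the table holds no value per library, and for the same reason no library could be left out. The depth of a single library, and any difference near the rounding of 0.01, cannot be read from these values.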

Other observations

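Outside the 34 peaks, the spans of the clusters held few others: 5 in the largest cluster of chromosome 6, 1 and 2 in the other clusters of that chromosome, and 1 in the cluster of chromosome 1. The peak closest to H4C9 (chr6:27142916-27143916), with its centre 4134 bp from the start, had a control signal of 3.02 and an IFN-β signal of -0.59, the minimum of that column, a difference of -3.61. It was chosen after its values were seen and has no replicate check.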
